A study of Mus musculus with 52 samples.

Results

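The respiratory chain genes of single mouse bone marrow cells were described by complex, by the genome that encodes them and by the level of Klf1 and Cd34 in each cell. They are the protein-coding genes whose symbols begin with Nduf, Uqcr, Atp5, Cox4, Cox5, Cox6, Cox7 or Cox8, together with Sdha, Sdhb, Sdhc, Sdhd, Cycs and the protein-coding genes of mitochondrial DNA. The rule found 107 of the 28786 genes in the table, 94 of them nuclear and 13 mitochondrial. A total of 99 passed a filter on level (mean CPM of 5 or more, with 10 or more cells holding a read), namely 86 nuclear genes and all 13 mitochondrial ones. CPM is the count of a gene scaled to the same total count in every cell.

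All 52 libraries carry the label primed HSCs (haematopoietic stem cells). They were made by Smart-seq2, a plate method with full-length cDNA and no molecular identifiers, from bone marrow of C57BL/6 mice aged 6 to 8 weeks. Every cell shares the genotype Cd4-cre;R26Tdtomato, in which Cre is driven by Cd4 sequences and can switch on a red fluorescent reporter. Red cells were lysed with ammonium chloride, and nothing in the sources used here gives the sort gate, the plates or the number of animals. No animal is named, so the cells form 1 sample, cells are not replicates and no test between cells was made. Every ± below is a standard deviation (SD) over cells.

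A total of 49 cells were kept, with 85519 to 12446477 reads each (median 2187580), and the 52 libraries all had distinct codes. Klf1, an erythroid transcription factor, and Cd34, a surface protein of stem and early progenitor cells, were each used to divide the cells. Klf1-high cells (100 CPM or more) numbered 36 and Klf1-low cells 13, while Cd34-positive cells (10 CPM or more) numbered 14 and Cd34-negative cells 35. These classes are ranges of 1 gene and not cell types. The nearest cells to the Klf1 limit held 141 CPM above it and 82.2 CPM below it, and those nearest to the Cd34 limit held 91.0 CPM and 1.66 CPM. Both divisions use nearly the same cells, since 33 cells were Klf1-high and Cd34-negative, 11 were Klf1-low and Cd34-positive, 3 were Klf1-high and Cd34-positive and 2 were Klf1-low and Cd34-negative.

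Markers set against the label showed erythroid genes in most of these cells. The summed level of 9 erythroid genes, Klf1 among them, had a median of 11684 CPM in Klf1-high cells (2877 to 18607) and 1489.5 CPM in Klf1-low cells (230.2 to 9483). Because Klf1 also sets these classes, part of that contrast follows from the division itself. The summed level of 10 stem cell genes, Cd34 among them, had a median of 488 CPM in Klf1-high cells (140.4 to 2556) and 2585 CPM in Klf1-low cells (6.63 to 3588). Cd4, Cd3e, Cd3g and Trbc2, which mark T cells, were at 0 in all kept cells, and such a count of 0 allows up to 6.12% of cells to hold a read. The Klf1-low, Cd34-negative cells, numbered 9 and 34, stood apart. Cell 9 was the shallowest (85519 reads, 1527 genes), with 2304 CPM of the B cell gene Cd79a. It held 142986 CPM of Bhlhe41, whose median in Klf1-low cells was 12658 CPM. It also held 7004 CPM of the erythroid gene Car1, against a median of 5608 CPM in Klf1-high cells. Cell 34 held 39230 CPM of Lyz2, a gene of neutrophils and monocytes. Several results that rest on this pair are given with and without it.

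As background, the respiratory chain passes electrons from NADH (complex I) and succinate (complex II) through ubiquinone, complex III and cytochrome c to oxygen at complex IV. Complexes I, III and IV pump protons, and complex V, the ATP synthase, uses the gradient to make ATP. Most subunits are made from nuclear genes and imported, and a small core of complexes I, III, IV and V is made inside the organelle from mitochondrial DNA. Haematopoietic stem cells are known for relying little on this chain at rest, and maturing erythroid cells are known for building up mitochondria for haem synthesis before they shed them.

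Nuclear respiratory chain genes took a larger share of the reads in Klf1-high cells and a smaller share in Cd34-positive cells, while mitochondrial genes did not follow either division closely. Over the 49 cells, nuclear members held 2.12% ± 0.53 of a cell's reads (median 2.18%, range 0.996% to 3.002%). Mitochondrial members held 3.36% ± 0.97 (median 3.44%, range 0.629% to 6.04%).

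In Klf1-high cells the nuclear share ran from 1.43% to 3.002% with a median of 2.45%, against 0.996% to 2.42% with a median of 1.42% in Klf1-low cells. All 36 Klf1-high cells lay above the Klf1-low median and 0 of 13 Klf1-low cells lay above the Klf1-high median, but the ranges overlapped. The means were 2.34% ± 0.37 in Klf1-high cells and 1.497% ± 0.42 in Klf1-low cells, a log2 ratio of 0.65 (1.57-fold). Pooled over cells, 2588548 of 108017828 reads were nuclear members in Klf1-high cells (2.396%, exact 95% interval 2.394 to 2.399), against 202711 of 14889742 in Klf1-low cells (1.361%, 1.356 to 1.367). These intervals cover counting error only, since reads of 1 molecule cannot be told from reads of several.

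Divided by Cd34, the nuclear share ran from 0.996% to 2.43% with a median of 1.46% in Cd34-positive cells, against 1.12% to 3.002% with a median of 2.46% in Cd34-negative cells. None of the 14 Cd34-positive cells lay above the Cd34-negative median. The means were 1.57% ± 0.42 in Cd34-positive cells and 2.34% ± 0.40 in Cd34-negative cells, a log2 ratio of -0.58 (0.669-fold). Because both divisions share most of their cells, they are 2 views of 1 pattern.

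The share did not follow Klf1 within the largest class. Over all 49 cells the Spearman correlation (rho) of the nuclear share was 0.50 with Klf1 and -0.63 with Cd34, as a description over cells of 1 sample that share a plate method and differ in depth. Within the 33 cells that were Klf1-high and Cd34-negative, rho with Klf1 was -0.15. The 3 cells with both genes had nuclear shares of 2.43% (cell 2, 1160.2 CPM of Klf1), 2.14% (cell 21, 197 CPM) and 1.43% (cell 47, 141 CPM).

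**Figure D1:**
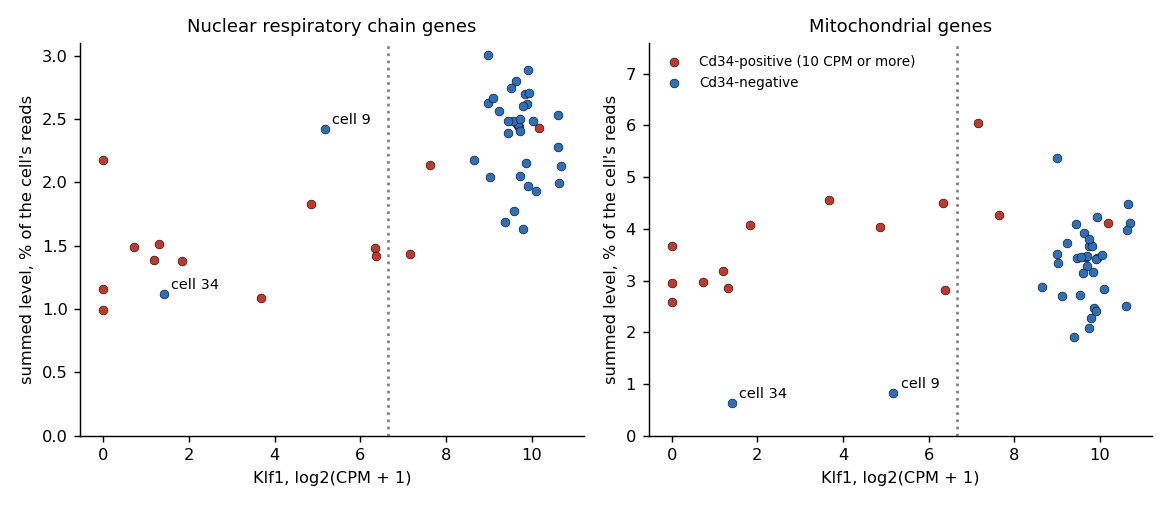
Summed level of the nuclear (left) and mitochondrial (right) members in each of the 49 kept cells, as a percentage of the cell's reads, against Klf1 as log2(CPM + 1); red points are Cd34-positive and blue points Cd34-negative cells, and the dotted line is the limit of 100 CPM. Nuclear shares lie at 1.43% to 3.002% right of the line and 0.996% to 2.42% left of it, while the mitochondrial shares span similar heights apart from cells 9 and 34.

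Other measures moved with the same division, and whether they give rise to the result was not tested. Klf1-high cells held 7367 ± 975 genes with a read and Klf1-low cells 5313 ± 1531. Mki67, a gene of cycling cells, was at 347 ± 287 CPM in Klf1-high cells and 81.6 ± 232 CPM in Klf1-low cells. Its log2 ratio was 2.09 with and 4.12 without cells 9 and 34, since cell 9 held 842 CPM. The rho of the nuclear share with Mki67 was 0.53 over all kept cells and 0.09 in Klf1-high cells. The summed level of 7 neutrophil and monocyte genes had a median of 7.20 CPM in Klf1-high cells (0 to 2854). In Klf1-low cells that median was 777 CPM (11.7 to 47302), with Elane at 0 throughout. Bhlhe41 had a median of 2957 CPM in Klf1-high cells (410 to 22266) and 12658 CPM in Klf1-low cells (4767 to 142986). The rho of the nuclear share with Bhlhe41 was -0.51 over all kept cells and -0.19 in Klf1-high cells. Klf1-high cells held more reads as well, with a median of 2993790 reads, against 752926 reads in Klf1-low cells. With every cell thinned to 85519 reads the nuclear log2 ratio was 0.63 between Klf1 classes and -0.57 between Cd34 classes. At full depth and without cells 9 and 34 it was 0.69 between Klf1 classes and -0.60 between Cd34 classes.

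The size of the step depended on the scale. CPM is a share of the cell's own reads, so it does not measure RNA per cell. With size factors from the 417 genes read in every kept cell, the median of all genes moved from 0.14 to -0.14 in the Klf1 division and from 0.0015 to 0.17 in the Cd34 division. The nuclear log2 ratio was then 0.32 between Klf1 classes and -0.44 between Cd34 classes. On either scale 73 of 86 nuclear members lay above the median of those 417 genes in the Klf1 division. Scaling of cells moves members and those genes nearly alike, so this count could hardly change with the scale. In the Cd34 division 77 members lay below that median with CPM and 73 with the size factors.

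The nuclear genes of each complex were higher in Klf1-high cells and lower in Cd34-positive cells. Complex I subunits summed to 6081 ± 994 CPM in Klf1-high cells and 3469 ± 1146 CPM in Klf1-low cells, a log2 ratio of 0.81. Complex IV subunits summed to 3625 ± 844 CPM in Klf1-high cells and 2056 ± 665 CPM in Klf1-low cells (0.82). For these complexes none of the 13 Klf1-low cells exceeded the Klf1-high median. Without cells 9 and 34 the ratios were 0.71 for complex I and 0.86 for complex IV.

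Complex V, the most abundant by reads, summed to 8846 ± 1570 CPM in Klf1-high cells and 5879 ± 2191 CPM in Klf1-low cells, a log2 ratio of 0.59. Complex II summed to 1705 ± 366 CPM in Klf1-high cells and 1098 ± 482 CPM in Klf1-low cells (0.63). Complex III had the smallest ratio, 0.31, with 2529 ± 571 CPM in Klf1-high cells and 2033 ± 1378 CPM in Klf1-low cells. That value turned on cell 9, which alone held 5999 CPM, and without cells 9 and 34 the complex III ratio was 0.65. The ratios of complexes II and V were then 0.70 and 0.64.

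Between Cd34 classes the log2 ratios of the summed levels were close together, at -0.52 for complex I, -0.63 for complex II, -0.60 for complex III, -0.69 for complex IV and -0.56 for complex V. The make-up of the nuclear sum was also compared. Complex V was 37.7% ± 3.0 of it in Klf1-high cells and 38.7% ± 5.6 in Klf1-low cells, complex I was 26.1% ± 2.7 in Klf1-high cells and 23.8% ± 5.6 in Klf1-low cells, and complex IV was 15.3% ± 1.9 in Klf1-high cells and 13.9% ± 3.0 in Klf1-low cells. Each of these differences was smaller than the spread over cells. Complex III was 10.8% ± 1.6 in Klf1-high cells and 13.2% ± 6.2 in Klf1-low cells, a log2 ratio of -0.30 with and -0.06 without cells 9 and 34.

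**Figure D2:**
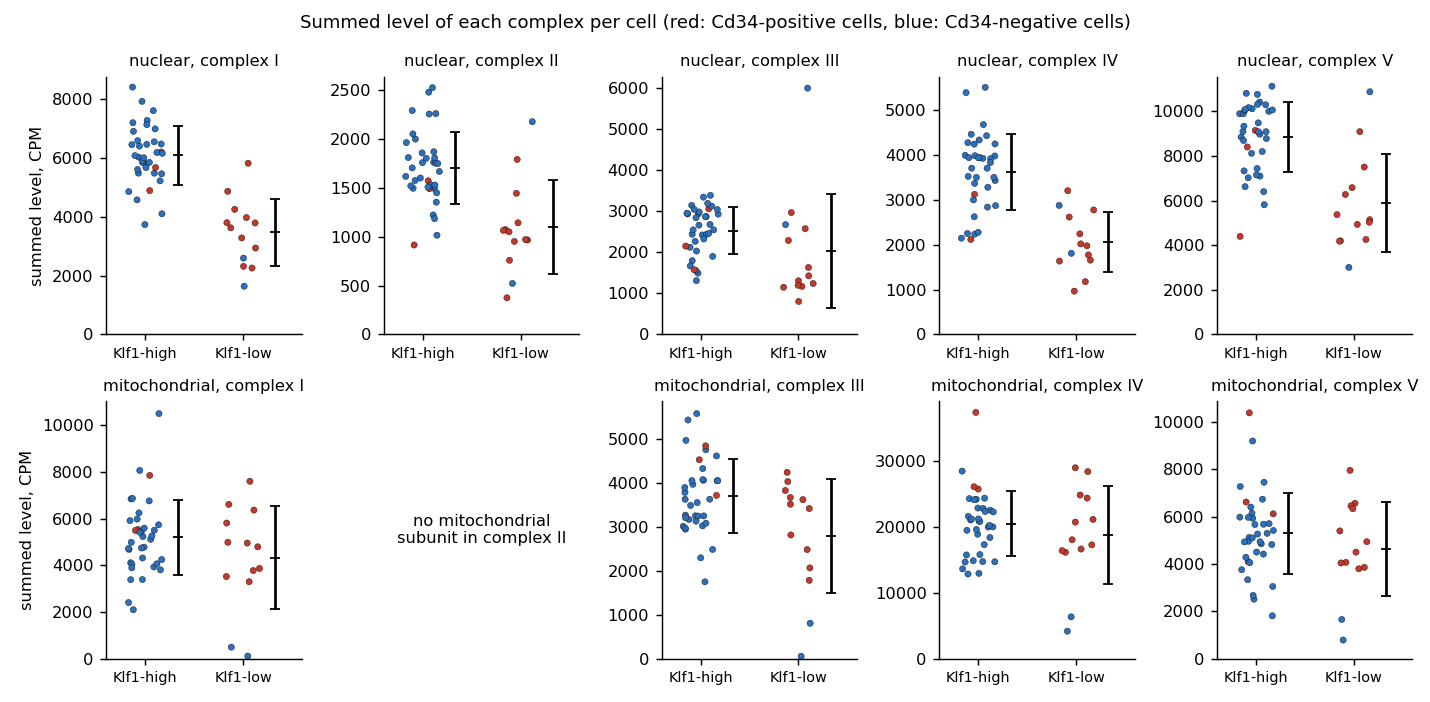
Summed CPM of the nuclear (top) and mitochondrial (bottom) members of each complex in each cell, Klf1-high cells left and Klf1-low cells right of each panel; points are cells, red for Cd34-positive and blue for Cd34-negative, and bars are the mean and SD over cells. Nuclear complexes I and IV have the largest log2 ratios in the kept cells (0.81 and 0.82), and 1 Klf1-low cell, cell 9, stands at 5999 CPM in complex III. Without cells 9 and 34 the ratios are 0.71 for I, 0.70 for II, 0.65 for III, 0.86 for IV and 0.64 for V.

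Of the 86 nuclear members past the filter, 51 had a mean at least 1.5-fold higher in Klf1-high cells and 1 at least 1.5-fold lower. Among all 9158 genes past the filter, 35.6% were at least 1.5-fold higher and 29% (2660 genes) at least 1.5-fold lower. The median nuclear member had a log2 ratio of 0.70, against 0.14 for all genes. Of the nuclear members 78 lay above 0, where 53.5% of all genes did. With the size factors, 33 members were at least 1.5-fold higher, where 28.9% of all genes were. On that scale 4 were at least 1.5-fold lower and 69 lay above 0. The shares of all genes lower or above 0 were not computed with the size factors. The median nuclear member was then at 0.38, against -0.14 for all genes. In Cd34-positive cells 40 nuclear members were at least 1.5-fold lower, where 29.7% of all genes were, and 0 were at least 1.5-fold higher, where 30.1% of all genes were. The median nuclear member there had a log2 ratio of -0.55, against 0.0015 for all genes. With the size factors 29 members were at least 1.5-fold lower in Cd34-positive cells, where 25.5% of all genes were.

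**Figure D3:**
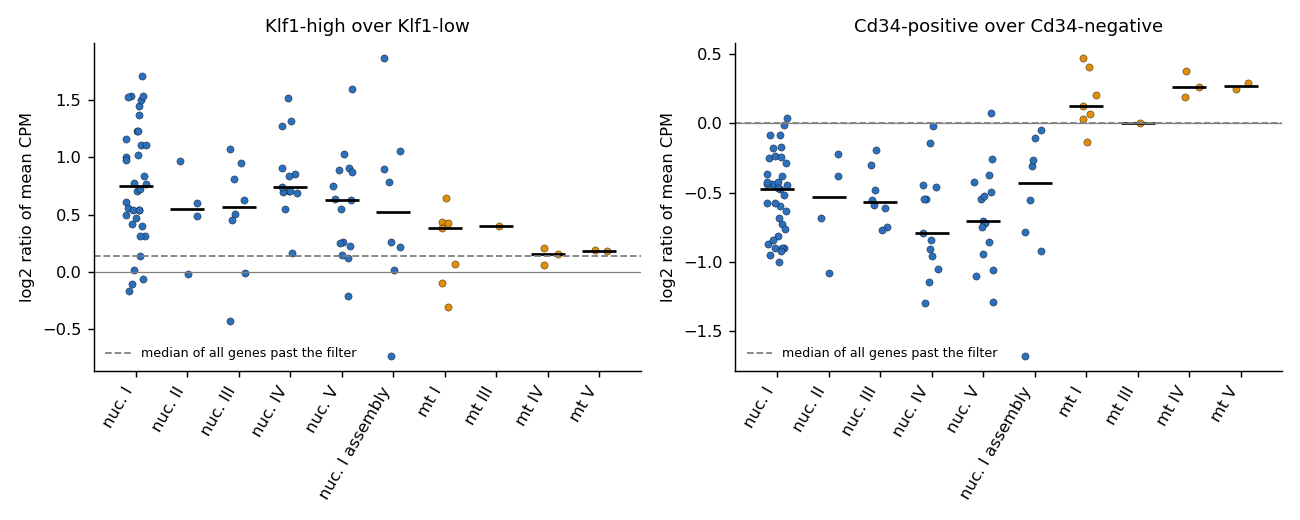
Log2 ratio of mean CPM of each member past the filter, by complex and genome, for Klf1-high over Klf1-low cells (left) and Cd34-positive over Cd34-negative cells (right); black lines are medians of each set (nuc., nuclear; mt, mitochondrial; Cycs and Atp5s not drawn), and the dashed line is the median of all genes past the filter. Nuclear members lie mostly above 0 at left and below 0 at right, and mitochondrial members lie nearer to 0 at left and mostly above it at right.

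Among complex I genes, 21 of 36 subunits were at least 1.5-fold higher in Klf1-high cells and 0 were as much lower. Of all genes past the filter, 35.6% were higher and 29% lower. Ndufv2, an iron-sulphur subunit of the NADH-oxidising arm, had a median of 388 CPM in Klf1-high cells (118 to 733) and 57.7 CPM in Klf1-low cells (0 to 454), a log2 ratio of 1.53. All 36 Klf1-high cells exceeded the Klf1-low median of Ndufv2.

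Ndufa11, an accessory subunit of the membrane arm, had a median of 104 CPM in Klf1-high cells (24.8 to 340.0) and 40.6 CPM in Klf1-low cells (0 to 106), also with a log2 ratio of 1.53. Its highest cell, cell 47, was both Klf1-high and Cd34-positive. By level per length (TPM, a count divided by transcript length and scaled to a fixed total per cell), Ndufs7, a core subunit by the ubiquinone site, was the highest of the nuclear complex I genes at 605 ± 276 TPM. The lowest, Ndufb2, an accessory subunit of the membrane arm, was at 48.1 ± 28.2 TPM. Ndufv3, at the other end of the complex I ratios, had a median of 61.0 CPM in Klf1-high cells (8.83 to 176) and 23.9 CPM in Klf1-low cells (0 to 253). Its mean ratio was -0.16 although its median was higher in Klf1-high cells, and the highest cell was cell 34. Without cells 9 and 34 the Ndufv3 ratio was no longer below 0.

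There were 8 complex I assembly factors, which help to build the complex but are not part of it. Of these, 4 were at least 1.5-fold higher in Klf1-high cells and 1 as much lower. These counts are set against 35.6% of all genes higher and 29% lower. Ndufaf6 had a median of 25.6 CPM in Klf1-high cells (0 to 175) and 0 CPM in Klf1-low cells (0 to 131), with a read in 29 of 36 Klf1-high and 4 of 13 Klf1-low cells. Its log2 ratio of 1.87 was the largest of any member, and between Cd34 classes its ratio of -1.68 was the lowest. Ndufaf2 was the 1 nuclear member at least 1.5-fold lower in Klf1-high cells, at a log2 ratio of -0.74, with a median of 18.7 CPM in Klf1-high cells (0 to 96.8) and 1.49 CPM in Klf1-low cells (0 to 222). The highest value was that of cell 9, and without cells 9 and 34 the Ndufaf2 ratio was -0.07.

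Complex II, succinate dehydrogenase, is wholly nuclear. Sdha, the flavoprotein that oxidises succinate, had a median of 908 CPM in Klf1-high cells (244 to 1506), against 483 CPM in Klf1-low cells (4.97 to 1223), a log2 ratio of 0.96. Sdhb, the iron-sulphur subunit, had a median of 280.3 CPM in Klf1-high cells (99.4 to 606) and 138 CPM in Klf1-low cells (1.66 to 377), a ratio of 0.60. For both genes the ranges of the classes overlapped.

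Sdhc and Sdhd are the membrane anchors. Sdhc had a median of 210.0 CPM in Klf1-high cells (51.8 to 405) and 119.5 CPM in Klf1-low cells (0 to 510.2), a log2 ratio of 0.49. Sdhd had a median of 282 CPM in Klf1-high cells (88.8 to 464) and 146 CPM in Klf1-low cells (4.97 to 2139.9), with a ratio of -0.01. The highest Sdhd cell was cell 9, and without cells 9 and 34 the ratios were 0.99 for Sdhd, 0.73 for Sdha, 0.37 for Sdhb and 0.69 for Sdhc. Per length, Sdha was the highest of the complex at 439 ± 213 TPM and Sdhc the lowest at 155 ± 87.5 TPM.

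In complex III, 4 of 8 subunits were at least 1.5-fold higher in Klf1-high cells and 0 as much lower, where 35.6% of all genes were higher and 29% lower. Uqcr11, a small accessory subunit and the highest of the complex per length (1077 ± 499 TPM), had a median of 369 CPM in Klf1-high cells (119 to 609) and 128 CPM in Klf1-low cells (11.7 to 575), a log2 ratio of 0.81. Uqcrc2, a core subunit and the lowest per length (207 ± 138 TPM), had a median of 283 CPM in Klf1-high cells (19.2 to 663) and 7.58 CPM in Klf1-low cells (0 to 478), a ratio of 1.07. Uqcrh, the acidic hinge protein that contacts cytochrome c, was the lowest subunit in the Klf1 division. Its median was 223 CPM in Klf1-high cells (88.3 to 349) and 192 CPM in Klf1-low cells (21.8 to 783), and its ratio was -0.43 with and 0.10 without cells 9 and 34.

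Most negative ratios were not negative without cells 9 and 34. A total of 8 nuclear members were below 0 in the Klf1 division, 6 of them with their highest value in cell 9, and 7 of the 8 were above 0 without cells 9 and 34. Another 3 turned negative without the pair, namely Ndufaf5 (-0.23), Ndufaf7 (-0.02) and Atp5c1 (-0.01), so that 4 were below 0 in all. Cell 9 was the highest cell for 16 of the 86 members and cell 34 for 8. Without this pair 53 members were at least 1.5-fold higher in Klf1-high cells, where 34% of all genes (3113) were, and 0 were as much lower, where 31.1% of all genes were.

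Cycs, cytochrome c, the soluble carrier between complexes III and IV, had a median of 284 CPM in Klf1-high cells (80.1 to 499.5) and 183 CPM in Klf1-low cells (0 to 585), a log2 ratio of 0.56. Without cells 9 and 34 the Cycs ratio was 1.01. Between Cd34 classes its median was 170.2 CPM in Cd34-positive cells (0 to 418) and 295 CPM in Cd34-negative cells (80.1 to 585), a ratio of -0.82.

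Complex IV, cytochrome c oxidase, had 11 of 13 subunits at least 1.5-fold higher in Klf1-high cells and 0 as much lower. Of all genes, 35.6% were higher and 29% lower. Cox6a1, a regulatory subunit, had a median of 349 CPM in Klf1-high cells (73.0 to 854) and 118 CPM in Klf1-low cells (0 to 291), a log2 ratio of 1.52. Of the 13 Klf1-low cells 0 reached the Klf1-high median. Divided by Cd34, Cox6a1 had a median of 122 CPM in Cd34-positive cells (20.8 to 446) and 348 CPM in Cd34-negative cells (0 to 854), a ratio of -1.14. Cox7a2 had the lowest Cd34 ratio of the complex, -1.30, with a median of 45.8 CPM in Cd34-positive cells (0 to 151) and 139 CPM in Cd34-negative cells (0 to 433).

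Several complex IV subunits exist in isoforms that differ between tissues, and reads were found mainly for the widespread forms. Cox4i1 was read in all 49 cells and was the highest of the nuclear complex IV genes per length (1264 ± 530.0 TPM), with a median of 726.8 CPM in Klf1-high cells (251 to 1104) and 316 CPM in Klf1-low cells (96.6 to 1251). Cox4i2, known from lung, was read in 1 cell. Cox6a2, Cox8b and Cox8c, known from heart and skeletal muscle or testis, were at 0 in all kept cells, as was Ndufa4l2, a relative of Ndufa4 that hypoxia induces. A count of 0 over all kept reads allows up to 0.0244 CPM, a limit that covers counting error only. Cox7a1, the muscle form, and Cox7b2, a testis form, were each read in 1 cell.

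Cox6b2, described as a testis isoform, was an exception and was read in 45 cells. It had a median of 87.01 CPM in Klf1-high cells (18.5 to 224), against 49.1 CPM in Klf1-low cells (0 to 123), a log2 ratio of 1.32. Per length it stood at 287 ± 188 TPM, below the widespread Cox6b1 at 899 ± 379 TPM. Cox6b1 had a ratio of 0.74, Cox8a 0.86 and Ndufa4, a subunit first assigned to complex I and counted here with complex IV, 0.90. Cox7a2l, which takes part in joining complexes III and IV, differed least in the complex, with 200.2 ± 86.5 CPM in Klf1-high cells and 178 ± 135 CPM in Klf1-low cells (0.17).

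Complex V had 8 of 15 subunits at least 1.5-fold higher in Klf1-high cells and 0 as much lower. Of all genes, 35.6% were higher and 29% lower. Atp5b, the catalytic subunit and the highest nuclear member per length (2209 ± 798 TPM), had a median of 3162 CPM in Klf1-high cells (1549.9 to 4564) and 1380.3 CPM in Klf1-low cells (99.4 to 3001). None of the Klf1-low cells reached the Klf1-high median, and the log2 ratio was 0.91. Atp5a1, the other large subunit of the catalytic head, had a ratio of 0.26, with 1670.1 ± 454 CPM in Klf1-high cells and 1390.0 ± 814 CPM in Klf1-low cells, a difference within the spread over cells.

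The Atp5g genes encode the same membrane ring protein with different import signals. Atp5g1 had a median of 686 CPM in Klf1-high cells (123 to 1137) and 196 CPM in Klf1-low cells (0 to 623), a log2 ratio of 1.599. Atp5g3 had a median of 247 CPM in Klf1-high cells (52.7 to 536) and 70.7 CPM in Klf1-low cells (0 to 637), a ratio of 1.03. Atp5g2 was read in 2 cells only. A processed pseudogene that shares 25.05% of the 31-base words of Atp5g2, Gm10231 on chromosome 17, stood at 352 ± 125 CPM in Klf1-high cells and 284 ± 161 CPM in Klf1-low cells. The split of reads between Atp5g2 and this copy is therefore uncertain.

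At the low end of the Cd34 division were Atp5k and Atp5o, subunits of the membrane part and of the stalk. Atp5k had a median of 15.2 CPM in Cd34-positive cells (1.71 to 69.0) and 51.2 CPM in Cd34-negative cells (0 to 164), a log2 ratio of -1.29. Atp5o had a median of 181 CPM in Cd34-positive cells (2.66 to 461) and 420.3 CPM in Cd34-negative cells (0 to 1403), a ratio of -1.10. Atp5j, a stalk subunit, had a Klf1 ratio of -0.21, with a median of 252 CPM in Klf1-high cells (161 to 428) and 225 CPM in Klf1-low cells (59.8 to 1216). Its highest cell was cell 9, and the Atp5j ratio was 0.36 without cells 9 and 34.

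**Figure D4:**
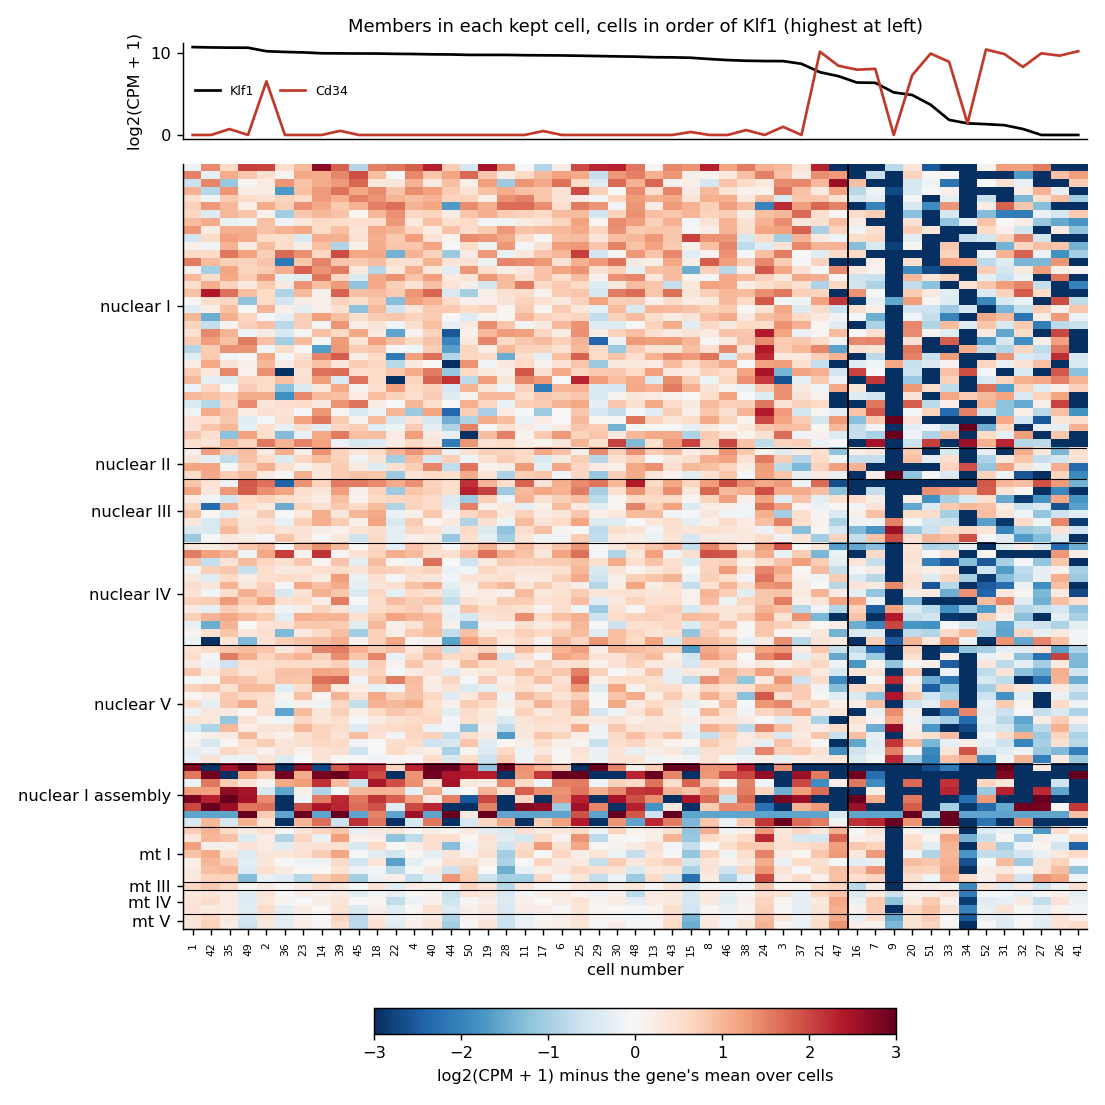
Each member past the filter except Cycs and Atp5s (rows, by complex and genome) in each kept cell (columns, highest Klf1 at left), as log2(CPM + 1) minus the gene's mean over cells; the upper panel gives Klf1 and Cd34 of each cell, and the vertical line parts the 36 Klf1-high from the 13 Klf1-low cells. The nuclear rows hold most of their low values, many of them at 0 reads, in the Klf1-low columns, and cells 9 and 34 are low across the mitochondrial rows, apart from mt-Nd6 in cell 34.

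Mitochondrial members differed less than nuclear ones, and in the Cd34 division the ratio of their sum had the opposite sign in the 49 kept cells but not in all 52 cells (-0.05). Their summed share was 3.47% ± 0.85 in Klf1-high cells (1.92% to 6.04%, median 3.46%) and 3.05% ± 1.22 in Klf1-low cells (0.629% to 4.55%, median 2.97%), a log2 ratio of 0.19. The lowest values were those of cells 34 (0.629%) and 9 (0.820%), and without this pair the log2 ratio was -0.0016. It was -0.08 with the size factors. The share was 3.76% ± 0.95 in Cd34-positive cells (2.59% to 6.04%, median 3.85%) and 3.20% ± 0.94 in Cd34-negative cells (0.629% to 5.37%, median 3.43%), a log2 ratio of 0.23. Between Cd34 classes the ratio of the mitochondrial sum was 0.42 with the size factors and 0.17 without cells 9 and 34. Each of the CPM differences in share was smaller than the SD over cells.

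Nuclear and mitochondrial reads were therefore in a different proportion. The ratio of mitochondrial to nuclear member reads averaged 2.52 ± 0.84 in Cd34-positive cells (1.69 to 4.21, median 2.22) and 1.36 ± 0.35 in Cd34-negative cells (0.339 to 2.25, median 1.40). All 14 Cd34-positive cells lay above the Cd34-negative median, although the ranges overlapped. By Klf1 the ratio averaged 1.52 ± 0.54 in Klf1-high cells and 2.18 ± 1.02 in Klf1-low cells. The log2 of Klf1-high over Klf1-low was -0.52 with and -0.72 without cells 9 and 34. That of Cd34-positive over Cd34-negative was 0.89 with and 0.83 without them. Being a ratio of reads in the same cell, the proportion of mitochondrial to nuclear reads does not change with the scaling of cells.

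By level per length the mitochondrial genes led by complexes IV and V. The highest was mt-Co3, a core subunit of complex IV, at 15352 ± 3866 TPM, followed by mt-Atp6 (10716 ± 3617 TPM), which forms the proton channel of complex V, and by mt-Co1 (9345 ± 3056 TPM) and mt-Co2 (7228 ± 2329 TPM), which carry the metal centres of complex IV. Next came mt-Cytb, the cytochrome of complex III, at 4754 ± 1402 TPM, mt-Atp8 at 3524 ± 1289 TPM and mt-Nd1 at 3058 ± 1135 TPM. The other complex I genes were lower, with mt-Nd4 at 1450.0 ± 629.9 TPM, mt-Nd4l at 1245 ± 556 TPM, mt-Nd3 at 1014 ± 472 TPM and mt-Nd5 at 797 ± 326 TPM, and mt-Nd6 and mt-Nd2 closed the order at 453 ± 259 TPM and 409 ± 239.9 TPM. Neighbours in this order lay within the larger of their SDs, except mt-Co3 over mt-Atp6, mt-Co2 over mt-Cytb, mt-Nd1 over mt-Nd4 and mt-Nd5 over mt-Nd6.

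**Figure D5:**
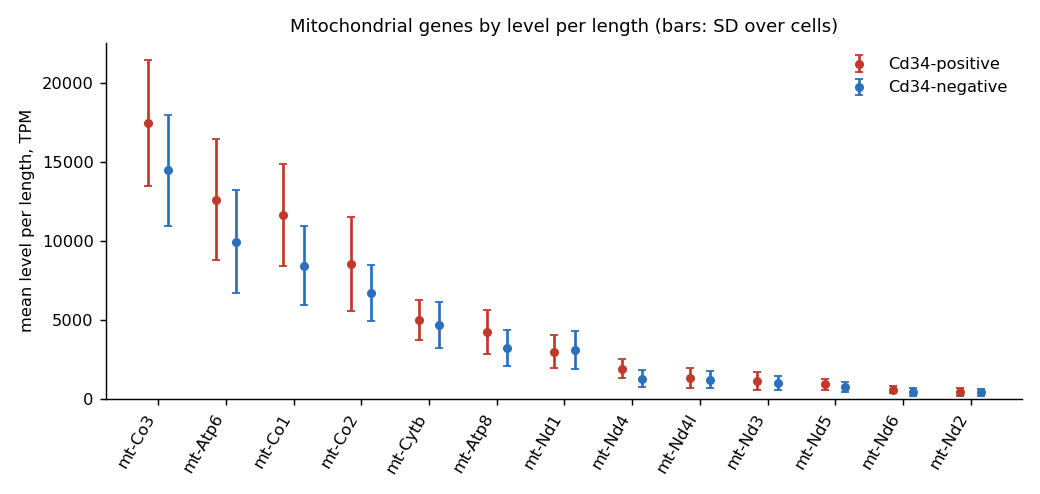
Mean level per length (TPM) of the 13 mitochondrial genes in Cd34-positive (red, left) and Cd34-negative (blue, right) cells, in order of their mean over all cells; bars are the SD over cells. The order runs from mt-Co3 (15352 TPM over all cells) to mt-Nd2 (409 TPM), and the bars of the classes overlap for every gene.

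In the Klf1 division, where 35.6% of all genes were at least 1.5-fold higher and 29% lower, 1 mitochondrial gene was higher and 0 lower. It was mt-Nd1, with a median of 1969 CPM in Klf1-high cells (695 to 3801) and 1371 CPM in Klf1-low cells (26.5 to 2257), a log2 ratio of 0.65 with and 0.41 without cells 9 and 34. In the Cd34 division 0 were at least 1.5-fold higher or lower, where 30.1% of all genes were higher and 29.7% lower. Of the 13 ratios 12 lay above 0, where 49.97% of all genes did. The highest was mt-Nd4, with a median of 1601 CPM in Cd34-positive cells (454 to 2594) and 1160.5 CPM in Cd34-negative cells (23.4 to 2622), a ratio of 0.48. It was followed by mt-Nd6 (0.41), mt-Co1 (0.38), mt-Atp8 (0.29) and mt-Co2 (0.26). The median of the 13 ratios was 0.21, against 0.0015 for all genes. With the size factors all 13 lay above 0, with a median of 0.42, against 0.17 for all genes.

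Some mitochondrial values carry limits of their own. The gene of mt-Nd6 lies on the opposite strand to the other members, its Klf1 ratio was -0.30, and the strand setting of the counting is not given in the sources used here, so its level is uncertain. The pairs mt-Atp8 with mt-Atp6 and mt-Nd4l with mt-Nd4 overlap, and 7 of the 13 genes have nuclear copies outside the table that were not analysed here.

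Members of the same genome varied together over cells, more so for mitochondrial genes. The mean pairwise rho was 0.54 among mitochondrial members, 0.24 among nuclear members past the filter, 0.12 between the genomes and 0.06 among all 9158 genes. Within the 33 Klf1-high, Cd34-negative cells it was 0.56 among mitochondrial members, 0.15 among nuclear members, 0.15 between the genomes and 0.01 among all genes. Of the nuclear complexes, IV (0.38) and V (0.36) had the highest values over all cells and II the lowest (0.12). These are descriptions over cells of 1 sample that differ in depth, and CPM values of 1 cell share a total.

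The promoters of members were read for letters that match factors known to act on respiratory genes. RefSeq windows (GRCm38.p6, 250 bases before to 50 after the start, 300 in all) were found for 77 of the 94 nuclear members, 82 windows in all. On either strand, the motif of NRF1, a factor of many respiratory genes, was in 8.54% of member windows and 1.33% of the 21262 coding-gene windows, and the ETS motif CCGGAAG, bound by factors such as GABP, in 18 of the 82 member windows and 11.6% of all windows. The motif of YY1 was in 6.10% of member windows and 0.889% of all. The letters TATAAA were in 9.76% of member windows and 12.6% of all. A match is a description of letters and not a bound site.

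The 4 windows below are examples from members named above. Cox6a1 and Atp5k were among the 5 lowest Cd34 ratios, Uqcrh had the lowest Klf1 ratio of any subunit, and Cox6b2 is the testis isoform read in 45 cells. The others of those 5, Ndufaf6, Cox7a2 and Atp5o, were not among the members with an NRF1 or ETS match. A relation between the motifs and the ratios was not tested. Each is printed 5′ to 3′ on the gene's strand with NRF1 and ETS matches in capitals, the NRF1 motif being the first run of capitals in Cox6a1.
Cox6a1, chr5:115348909-115349208, minus strand: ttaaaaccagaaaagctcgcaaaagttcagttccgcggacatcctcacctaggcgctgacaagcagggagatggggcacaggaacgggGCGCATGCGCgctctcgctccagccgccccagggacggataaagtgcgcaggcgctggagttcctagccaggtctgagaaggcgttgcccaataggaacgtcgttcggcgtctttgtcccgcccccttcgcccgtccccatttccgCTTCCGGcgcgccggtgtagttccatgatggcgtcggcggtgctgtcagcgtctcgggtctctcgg
Atp5k, chr5:108434350-108434649, minus strand: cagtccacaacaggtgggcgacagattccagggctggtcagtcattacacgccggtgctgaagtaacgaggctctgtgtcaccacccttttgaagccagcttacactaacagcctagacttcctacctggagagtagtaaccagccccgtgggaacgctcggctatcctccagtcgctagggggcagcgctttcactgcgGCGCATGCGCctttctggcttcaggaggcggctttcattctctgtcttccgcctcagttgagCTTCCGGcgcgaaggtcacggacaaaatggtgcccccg
Uqcrh, chr4:116075021-116075320, minus strand: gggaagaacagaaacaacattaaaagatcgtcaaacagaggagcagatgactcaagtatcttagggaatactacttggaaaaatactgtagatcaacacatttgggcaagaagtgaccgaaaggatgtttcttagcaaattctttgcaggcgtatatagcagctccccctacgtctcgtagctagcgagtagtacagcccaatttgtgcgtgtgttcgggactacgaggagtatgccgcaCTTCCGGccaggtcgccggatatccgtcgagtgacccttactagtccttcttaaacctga
Cox6b2, chr7:4753045-4753344, minus strand: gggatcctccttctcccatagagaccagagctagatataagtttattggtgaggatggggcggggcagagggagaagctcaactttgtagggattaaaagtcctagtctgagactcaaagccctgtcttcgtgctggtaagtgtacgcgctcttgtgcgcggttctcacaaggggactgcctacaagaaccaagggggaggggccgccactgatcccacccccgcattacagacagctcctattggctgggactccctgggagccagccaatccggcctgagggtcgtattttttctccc

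The windows of Cox6a1 and Atp5k each hold 1 NRF1 match and 1 ETS match, the ETS one as its reverse complement. That of Uqcrh holds 1 ETS match, also as the reverse complement, and that of Cox6b2 holds neither motif. Of the genes for those factors, Nrf1 was at 147 ± 119 CPM in Klf1-high cells and 114 ± 173 CPM in Klf1-low cells (log2 ratio 0.37), and Gabpa at 57.7 ± 59.1 CPM in Klf1-high cells and 40.997 ± 89.8 CPM in Klf1-low cells (0.49). Gabpb1, the partner of Gabpa, had a ratio of 0.58. Yy1 ran the other way, at 26.7 ± 27.5 CPM in Klf1-high cells and 89.6 ± 127 CPM in Klf1-low cells (-1.75).

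Other regulators of mitochondrial mass were uneven. Pprc1, a coactivator of the PGC-1 family, had a median of 99.1 CPM in Klf1-high cells (0.391 to 402) and 0 CPM in Klf1-low cells (0 to 140), a log2 ratio of 2.47, and all 36 Klf1-high cells lay above the Klf1-low median. Its relative Ppargc1b had a ratio of 0.88, and Ppargc1a and the receptor gene Esrra did not pass the filter. Of the 12 genes that copy and transcribe mitochondrial DNA, 6 were at least 1.5-fold higher in Klf1-high cells and 2 as much lower, where 35.6% of all genes were higher and 29% lower. Tfam, which packages mitochondrial DNA, had a ratio of 0.14, with 82.04 ± 61.6 CPM in Klf1-high cells and 74.4 ± 77.5 CPM in Klf1-low cells. Polrmt, the mitochondrial RNA polymerase, was at 101.02 ± 105 CPM in Klf1-high cells and 162 ± 300 CPM in Klf1-low cells (-0.68), and the transcription factor Tfb2m at 29.4 ± 39.4 CPM in Klf1-high cells and 70.2 ± 85.02 CPM in Klf1-low cells (-1.25). The elongation factor Tefm was at 30.1 ± 39.6 CPM in Klf1-high cells and 0.427 ± 1.54 CPM in Klf1-low cells. Tfb1m, an rRNA methyltransferase, was at 22.6 ± 37.6 CPM in Klf1-high cells and 1.08 ± 1.78 CPM in Klf1-low cells. The other log2 ratios were 2.35 for Polg2, the accessory subunit of the mitochondrial DNA polymerase, and 0.81 for its catalytic subunit Polg. They were 0.15 for the helicase Twnk, 0.06 for the single-strand binding protein Ssbp1, 2.35 for Mterf1a, 0.51 for Lrpprc and 1.21 for Slirp, the last pair being known to stabilise mitochondrial mRNA.

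Genes around the chain were counted in the same way from lists. Of 77 proteins of the mitochondrial ribosome, which makes the 13 mitochondrial products, 53 were at least 1.5-fold higher in Klf1-high cells and 3 as much lower. The shares of all genes were 35.6% higher and 29% lower, and the median log2 ratio of the ribosomal genes was 0.91. The highest ratios were those of Mrps22, at 45.8 ± 40.01 CPM in Klf1-high cells and 0.0432 ± 0.156 CPM in Klf1-low cells, and of Mrpl47, at 33.5 ± 33.8 CPM in Klf1-high cells and 1.29 ± 2.92 CPM in Klf1-low cells. The lowest were Mrps25 (-1.31) and Mrps10, the Mrps10 ratio being -1.14 with and 0.56 without cells 9 and 34.

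Of 18 complex IV assembly genes, 12 were at least 1.5-fold higher in Klf1-high cells and 2 as much lower. The shares of all genes were 35.6% higher and 29% lower, and the median log2 ratio of the assembly genes was 0.87. Surf1, needed to assemble the core of the enzyme, was at 40.5 ± 35.9 CPM in Klf1-high cells and 5.48 ± 16.8 CPM in Klf1-low cells. Taco1, an activator of mt-Co1 translation, was at 10.9 ± 25.3 CPM in Klf1-high cells and 0.0578 ± 0.208 CPM in Klf1-low cells, with a read in 12 cells in all. At the low end were Cox18, which helps insert a core subunit (-0.93), and Pet100 (-2.21). The Pet100 ratio was -0.08 without cells 9 and 34.

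Of 12 assembly genes of complexes II, III and V, 4 were at least 1.5-fold higher in Klf1-high cells and 3 as much lower, with a median log2 ratio of 0.08. These counts are near the shares of all genes, 35.6% higher and 29% lower. The complex III factors Uqcc2 (1.58) and Uqcc1 (1.30) were highest, and Ttc19 (-1.77), also of complex III, and the complex II factor Sdhaf3 (-1.01) were lowest. Of 13 genes of ubiquinone synthesis and handling, 9 were higher and 2 lower by the same limit, with a median of 1.18. Coq8b was at 38.5 ± 41.4 CPM in Klf1-high cells and 1.12 ± 4.05 CPM in Klf1-low cells, while the related Coq8a was at 49.6 ± 80.4 CPM in Klf1-high cells and 178 ± 295 CPM in Klf1-low cells. The related Coq10b and Coq10a also differed in sign, Coq10b with 7.89 ± 14.1 CPM in Klf1-high cells and 0.454 ± 1.64 CPM in Klf1-low cells, and Coq10a with 1.598 ± 5.28 CPM in Klf1-high cells and 29.5 ± 75.7 CPM in Klf1-low cells.

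Of 9 carriers and other electron donors, 4 were at least 1.5-fold higher in Klf1-high cells and 0 as much lower, where 35.6% of all genes were higher and 29% lower, with a median of 0.30. Dhodh, which feeds electrons from pyrimidine synthesis into ubiquinone, was at 103 ± 75.1 CPM in Klf1-high cells and 10.3 ± 35.9 CPM in Klf1-low cells. Etfdh, which feeds in electrons from fatty acid oxidation, had a log2 ratio of 1.23, and Etfb, a subunit of the flavoprotein that supplies it, -0.10. Ucp2, an inner membrane carrier, had a ratio of -0.58 with and 1.14 without cells 9 and 34.

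Some members share sequence with other genes, which limits how their reads could be assigned. A total of 34 members shared 10% or more of their 31-base words with at least 1 other gene. For 5 of them such a gene was in the table at 5 CPM or more. Not all of these genes are copies, since Mrpl47, named above, shares 11.6% of the words of Ndufb5. The reads of Mrpl47 and Ndufb5 carry the same limit. Gm10053, a copy of Cycs on chromosome 19, stood at 85.4 ± 43.7 CPM in Klf1-high cells and 47.9 ± 59.0 CPM in Klf1-low cells, and Cycs with this copy added had a log2 ratio of 0.62. Adding Ndufb4c to Ndufb4 gave a ratio of 0.47, and adding Gm12338 to Cox7c gave 0.43, against 0.49 for Ndufb4 and 0.69 for Cox7c alone. The Cox7c ratio was 1.31 without cells 9 and 34.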

How the data were processed

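Single-cell RNA-seq (Smart-seq2) of 52 bone marrow cells was analysed from 1 table of 28786 genes. The deposited values are expected counts, made with Trim Galore 0.5.0, Salmon 0.03.1 and build GRCm38 per the submitters' processing notes; the strand setting is not given in the sources used here. Of the values, 4.23% were not whole, and all were rounded. Gene symbols (GENCODE M21) were found for 27728 IDs (96.3%).

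Cells with at least 50000 reads, at least 1000 genes and at most 20% mitochondrial reads were kept (49; 85519 to 12446477 reads). CPM used all reads of a cell, and TPM the median length of a gene's coding transcripts. All cells are 1 sample of 1 group, so differences are ratios of mean CPM with the spread over cells, with no test, and p-values were not computed. A gene was counted at 1.5-fold, after a filter of a mean of 5 CPM and a read in 10 cells. No doublet caller was run. The ratio script was tested on simulated data.

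Named genes were all mitochondrial and complex II genes, Cycs, isoform sets, the highest and lowest per-length gene of each complex, the 5 highest and 5 lowest ratios in each division, the regulators and the transcription list, and up to 2 at each end of other lists; other genes, such as Atp5a1, Atp5g copies and Ndufb4, were chosen after their values were seen. 1 gene that this rule names is not reported here. The members and lists were chosen with earlier results of these data known. Alternatives covered scaling, filters, limits, thinning, averages and cells left out. Versions were Python 3.11.15, numpy 2.4.6, pandas 2.3.3 and scipy 1.17.1.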

Additional observations from a re-analysis of the deposited data

Results flagged for a closer look

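The 3 cells left out by the filter on cells also held reads of respiratory chain genes. They entered the mitochondrial Cd34 ratio given above with no cell left out, and no other comparison above. Cell 5 (307220 reads) held 28.3% of its reads in mitochondrial members, above the 6.04% that was highest among kept cells, and 2.12% in nuclear members. Cell 10 (39692 reads) held 5.34% in mitochondrial and 1.10% in nuclear members. Cell 12 (32439 reads) held 2.15% in mitochondrial and 1.74% in nuclear members.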

How the results depend on the processing

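No paired analysis was possible because all cells belong to 1 group with no replicate samples. Of 156 values recomputed under alternatives, 133 stayed within the spread, within 0.1 for correlations or within 1.5 times the count. The other 23 moved further, and 0 called values changed sign. Only log2 ratios of 1.5-fold or more were called, so the nuclear Cd34 ratio of -0.58 was not. The nuclear log2 ratio lay between 0.31 and 0.79 for Klf1 and between -0.75 and -0.44 for Cd34. With median-of-ratios size factors the nuclear Klf1 ratio was 0.32, the correlations of the mitochondrial sum were -0.12 with Klf1 (0.08 with CPM), 0.38 with Cd34 (0.18) and -0.15 with the nuclear sum (0.18), so that 2 of them changed sign, and (chosen after seeing the data) 33 nuclear and 0 mitochondrial members were past the limit in Klf1-high cells. A Klf1 limit at the median gave a nuclear ratio of 0.31, with 16 nuclear and 0 mitochondrial members past the limit. A fold limit of 2 gave 23 nuclear members for Klf1, 9 for Cd34 and 0 mitochondrial ones, and a Cd34 limit of 1 read gave 23 nuclear members for Cd34. Differences of mean log2(CPM + 1) gave 79 nuclear members for Klf1, 63 for Cd34 and 6 mitochondrial ones, with nuclear medians of 1.81 and -0.998. The share of all genes past the limit was not computed for these limits or for this average. Their counts therefore cannot be set against all genes. The 1 mitochondrial member past the limit became 0 with a Klf1 limit of 300 CPM, with ratios of medians, without cells 9, 13, 23 and 34 and without cells 9 and 34 (chosen after seeing the data), and 2 with thinned cells. The uncalled mitochondrial ratio was -0.08 for Klf1 with size factors and -0.05 for Cd34 with all 52 cells. These changes of sign are among the 133 values, because the spreads (0.54 and 0.55) exceed the ratios themselves (0.19 and 0.23). The causes were not tested. Reads carry no molecular identifiers, animals and plates are not known, and ratios of genes near 0 CPM in Klf1-low cells rest on few reads.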
